A study of Mus musculus with 12 samples.

Results

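Malat1-high cells were the barcodes in which the long noncoding RNA Malat1 made up at least 5% of the cell's unique molecular identifiers (UMIs, each counting 1 captured RNA molecule). They were selected on the Malat1 count and the total count of each cell, and were 15510 of the 27439 cells kept in the 8 treated brain libraries, or 56.5%, and the remaining 11929 cells are called the other cells. A barcode was kept when it had at least 200 detected genes and at most 10% of its UMIs in mitochondrially encoded genes, which left 27439 of 31104 barcodes. Within each library the raw UMIs of the Malat1-high cells and of the other cells were summed, and the 2 sums were compared as a pair, with Malat1 left out of every total.

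The libraries came from 4 wild-type C57BL/6J mice, 1 female and 1 male dosed intravenously (i.v.) and 1 female and 1 male dosed intracerebroventricularly (i.c.v.). All 4 had been conditioned with busulfan, had received lineage-negative hematopoietic stem and progenitor cells from male donors that carried a GFP lentiviral vector, and had later been given non-transduced bone marrow i.v., so the GFP- sort can hold unlabelled donor cells. The labels give an age of 22 to 28 weeks, whereas the study's methods place this collection 12 to 13 months after dosing. From each brain CD45+ CD11b+ CX3CR1+ cells were sorted into GFP+ microglia-like cells (MLCs) and GFP- endogenous microglia, which gave 4 GFP+ and 4 GFP- libraries. The 8 pairs therefore come from 4 animals, with 1 animal for each route and sex.

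Malat1 is an abundant RNA that stays in the nucleus and gathers in nuclear speckles, which are stores of splicing factors. Neat1, its neighbour, is the scaffold of paraspeckles, a second kind of nuclear body. Messenger RNAs for ribosomal proteins, respiratory chain subunits and cytoskeletal proteins are spliced, exported and mostly found in the cytoplasm, so nuclear and cytoplasmic RNA differ in composition in any cell. In microglia, the resident macrophages of the brain, and in the macrophages that replace them after conditioning, single-cell libraries read both pools at once, from molecules captured by their runs of adenine.

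On the mm10 assembly (GRCm38, GENCODE vM21), Malat1 lies at chr19:5795690-5802672 and Neat1 at chr19:5824708-5845478, both on the minus strand and 22035 bases apart, with Neat1 upstream. The mature Malat1 transcript carries no added poly(A) tail, and its annotated 3′ region holds a genome-encoded run of 12 adenines at positions 6674 to 6685 of the 6983-base transcript Malat1-201. That stretch and the last 100 bases of the 20771-base transcript Neat1-201 are shown because an oligo(dT) primer binds runs of adenine. Where on either RNA the counted molecules were primed was not examined. Capitals mark the run of 12 in Malat1 and the final runs of at least 4 adenines in Neat1.
Malat1-201, chr19:5795928-5796059, minus strand: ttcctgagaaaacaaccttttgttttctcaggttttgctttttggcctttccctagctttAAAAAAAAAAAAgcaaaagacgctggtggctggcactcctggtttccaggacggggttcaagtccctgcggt
Neat1-201, chr19:5824708-5824807, minus strand: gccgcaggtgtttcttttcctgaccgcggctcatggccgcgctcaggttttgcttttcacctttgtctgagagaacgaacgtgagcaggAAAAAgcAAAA

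The threshold split every library into 2 large groups, but not in the same proportion. Malat1-high cells made up 43.4%, 58.6%, 59.7% and 55.2% of the GFP+ libraries from the i.v. female, i.v. male, i.c.v. female and i.c.v. male mice, and 81.4%, 53.4%, 52.6% and 56.6% of the GFP- libraries in the same order. The i.v. female GFP- library stood apart, with 2178 Malat1-high and 497 other cells, while the lowest share was in the GFP+ library of the same mouse. These shares follow from the rule and are given as a description. The median Malat1 share was between 8.57% and 12.4% in the Malat1-high cells and between 1.07% and 2.61% in the other cells. Near the threshold, between 3.03% and 8.01% of a library's cells lay within 0.5 percentage points of 5%, from 44 to 112 cells just below it and from 37 to 131 just above, so no gap separated the 2 groups.

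**Figure D1:**
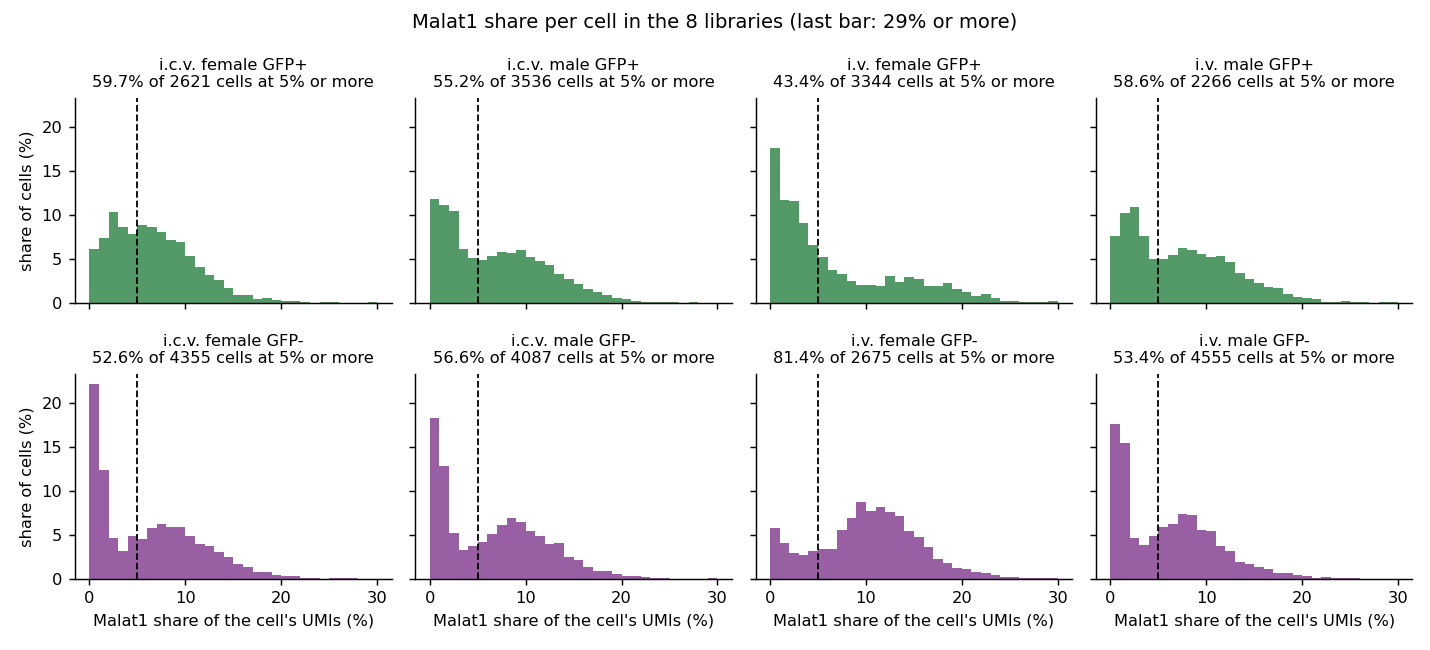
Share of cells (y axis, %) by the Malat1 share of the cell's UMIs (x axis, %) in bins of 1 percentage point, 1 panel per library, GFP+ in green and GFP- in purple; the dashed line is the 5% threshold. Cells lie on both sides of the threshold in every library, with no empty bin beside it, and 81.4% of the i.v. female GFP- cells lie above it.

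The median depth of the Malat1-high cells was alike in all libraries, but that of the other cells was not. Median UMIs outside Malat1 ranged from 773 to 954.5 in the Malat1-high cells of the 8 libraries. Among the other cells they were 6558, 8484, 6546.5 and 4593 in the GFP+ libraries (i.v. female, i.v. male, i.c.v. female, i.c.v. male), and 3589, 633.5, 654 and 663 in the GFP- libraries. By these medians the other cells were deeper than the Malat1-high cells in 5 libraries and shallower in 3 GFP- libraries. Cells of at least 2000 UMIs were nevertheless more frequent among the other cells in all 8 libraries, at 14.6% to 29.1% against 5.80% to 8.04% in those 3 and 58.4% to 82.3% against 4.87% to 30.9% in the remaining 5, so the summed counts of the other cells draw more on deep cells throughout. The Malat1 count of the other cells varied as well: its median was 104 to 191 UMIs per cell in the GFP+ libraries and 71 in the i.v. female GFP- library, but 7 or 8 in the remaining 3, against 78 to 166 in the Malat1-high cells. Depth is the denominator of the share and was not tested. The summed profiles held between 1571165 and 2682441 UMIs for the Malat1-high cells and between 2389470 and 13324621 for the other cells, which is the depth behind every gene value below.

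Both groups carried the markers of the sorted cells. At least 3 of 10 microglia markers were detected in 61.1% to 98.0% of Malat1-high cells and in 86.2% to 99.3% of other cells, at their unequal depths. The 10 markers together held 0.782% to 1.73% of the UMIs of the Malat1-high cells and 0.641% to 1.97% of those of the other cells. Markers of CNS-associated macrophages (CAMs) were frequent: by the same count of 3 markers, 2198 Malat1-high cells (1.84% to 36.7% of a library's) and 3808 other cells (5.79% to 57.6%) passed. Their share of UMIs went the other way in the GFP+ libraries, where it was 0.297% to 0.372% in the Malat1-high and 0.187% to 0.258% in the other cells, higher in 4 of 4, and was lower in 4 of 4 GFP- libraries. Markers of cell types outside these were rarer: 11 Malat1-high and 75 other cells passed for neutrophils, 22 and 117 for astrocytes, 6 and 100 for dendritic cells, 0 and 53 for monocytes and 9 and 55 for oligodendrocytes. Of the 6 erythroid markers, Hba-a1 and Hba-a2 were at 0 in all 16 sums. Between any 2 of the 8 libraries, 0 to 8 cell barcodes were shared.

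Messengers for ribosomal, respiratory chain and cytoskeletal proteins were lower in the Malat1-high cells, and most nuclear lncRNAs and messengers of chromatin regulators were higher. Of 10099 genes tested, 4214 were higher (41.7%) and 3728 lower (36.9%) at an adjusted p under 0.05 (edgeR quasi-likelihood test paired by library), in all 78.6%, so a call alone says little about any gene. Changes of at least 2-fold were called for 1263 genes upward and 1466 downward. The median log2 difference of all genes was 0.06, with quartiles at -0.61 and 0.65. These values use TMM scaling, which sets the bulk of genes level. On plain UMI totals, an alternative added after the data were seen, every difference moved up by a median of 0.52, and 6248 genes were higher and 2029 lower, 75.5% of calls upward in place of 53.1%. The median of all genes was then 0.58, and a sign that turns with this common shift is no change against the median gene. Differences are therefore read against the median gene on either scale, and counts on plain totals against these 6248 and 2029 of 10099 genes.

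Ribosomal protein messengers took 4.12% to 7.52% of the UMIs of the Malat1-high cells (median 4.82%) and 11.4% to 19.2% of those of the other cells (median 14.7%). The 8 and 8 values did not overlap, and the mean difference was -10.2 percentage points (SD 2.30, lower in 8 of 8 libraries; two-sided exact sign-flip test, p = 0.0078, the smallest that 8 pairs allow). With every cell thinned to 500 UMIs outside Malat1, a Malat1-high cell showed 376 to 399 genes (mean 386 ± 8.00, SD, n = 8 libraries) and an other cell 312 to 363 (mean 338 ± 17.2). The same number of molecules was spread over 47.5 ± 9.94 more genes, in 8 of 8 libraries (exact sign-flip test, p = 0.0078); 726 Malat1-high and 224 other cells were too shallow to enter. Mitochondrially encoded RNAs moved little: 2.56% to 3.87% (median 2.97%) against 2.33% to 2.996% (median 2.74%), a mean difference of 0.479 ± 0.510 percentage points (higher in 7 of 8 libraries; exact sign-flip test, p = 0.016). That last direction depended on the cell filter: with a stricter filter on genes and mitochondrial UMIs, the mitochondrial share of UMIs differed by -0.467 percentage points (exact sign-flip test, p = 0.016). It is also a value of the summed counts. The mitochondrial share of a library's median cell was 1.42% to 3.12% (median 1.86%) among Malat1-high and 1.40% to 2.60% (median 2.35%) among other cells.

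**Figure D2:**
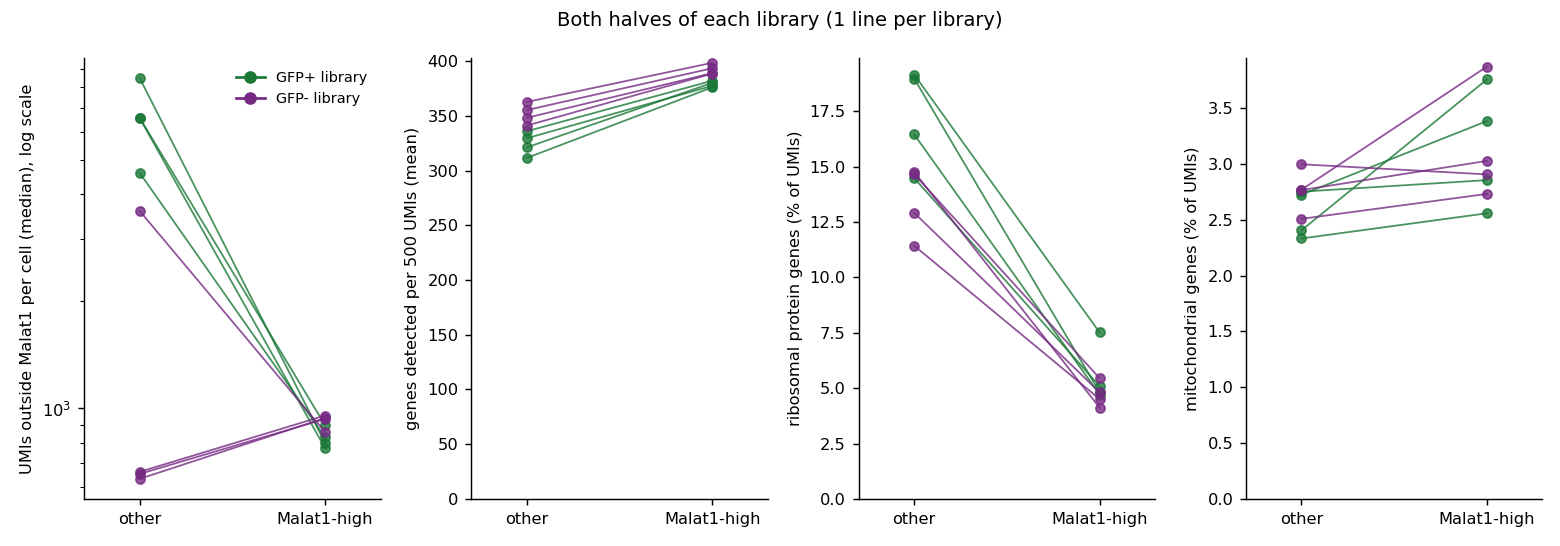
Median UMIs outside Malat1 per cell (log axis), mean genes detected per 500 UMIs, and the ribosomal protein and mitochondrial shares of UMIs (%), for the other cells (left) and the Malat1-high cells (right) of each library; each line is 1 library, GFP+ in green and GFP- in purple. The ribosomal protein share falls and the number of genes rises along every line, whereas depth falls in 5 libraries and rises in 3.

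Neat1 moved with Malat1. Gene levels are given as CPM, UMIs per 1000000 UMIs outside Malat1 with each total multiplied by its TMM factor (1.13 to 1.25 for the Malat1-high and 0.735 to 0.968 for the other cells). Neat1 ranged from 831 to 2413 CPM (median 1525) in the Malat1-high cells and from 367 to 601 (median 501) in the other cells. All 8 Malat1-high values were above all 8 others, a pattern seen upward in 17.1% and downward in 17% of all genes, and the log2 difference was 1.69 ± 0.10 (SE, adjusted p = 2.44e-10). The smallest gap was in the i.v. female GFP+ library, at 831 against 367 CPM.

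Of 12 tested lncRNAs listed as nuclear, 10 were higher and 1 lower, with a median log2 difference of 1.55, against 41.7% and 36.9% of all genes and a median of 0.06. Among those chosen after their values were seen, Kcnq1ot1, the antisense RNA of the imprinted Kcnq1 domain, ranged from 313 to 496 CPM (median 405) in the Malat1-high cells and from 69.4 to 116 (median 91.4) in the other cells. Its log2 difference was 2.16 ± 0.07 (SE, adjusted p = 5.79e-12), and the groups did not overlap. Tsix, the antisense partner of Xist, had the largest difference of the list, 2.84 ± 0.19 (SE, adjusted p = 3.99e-09), but it was detected in substance only in the GFP- libraries of the female mice, at 708 against 76.0 CPM in the i.v. mouse and 465 against 65.0 in the i.c.v. mouse. Xist, the RNA that coats the inactive X chromosome, overlaps Tsix and had a log2 difference of 1.55 ± 0.28 (SE, adjusted p = 9.19e-05); whether the counting told the 2 strands apart is not given in the sources used here. Gm42418, the most abundant of the list, shares sequence with ribosomal RNA and is uncertain: its log2 difference was 0.64 ± 0.17 (SE, adjusted p = 0.0028), and it turned to -0.57 among cells under 1000 UMIs. Mir155hg, the precursor of an inflammatory microRNA, was the member that fell, by 0.59 on the log2 scale, and no member of the list was called lower on plain totals.

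Most messengers on the lists of chromatin regulators, splicing factors and paraspeckle proteins were higher. Of 42 chromatin regulators, 39 were higher and 0 lower (median log2 difference 0.75); of 36 speckle and splicing factors, 29 were higher and 5 lower (median 0.79); and of 10 paraspeckle proteins, 7 were higher and 2 lower (median 0.61). Chd9, a chromodomain helicase, ranged from 442 to 566 CPM (median 502) in the Malat1-high cells and from 152 to 209.8 (median 167) in the other cells. The groups did not overlap, at 1.55 ± 0.07 (SE, adjusted p = 1.98e-11). Tet3, which oxidises methylated cytosine, had the largest difference among chromatin regulators, 1.55 ± 0.07 (SE, adjusted p = 2.39e-11), and Chd2 reached 1.41. Sfpq, a core protein of paraspeckles, ranged from 443 to 702 CPM (median 573) in the Malat1-high cells and from 186 to 374 (median 317) in the other cells. Its groups did not overlap, at 0.96 ± 0.08 (SE, adjusted p = 6.01e-09). Paxbp1 led the splicing list at 1.79, and Rbm39 reached 0.79.

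Not every member followed. U2af1, which reads the 3′ splice site, fell by 0.93 on the log2 scale, and Hnrnpk, an RNA-binding protein that shuttles to the cytoplasm, fell by 0.54, although on plain totals Hnrnpk stood at -0.03 and was no longer called. Ddx5, the most abundant member of the splicing list, was at -0.10 ± 0.08 (SE, adjusted p = 0.28). On plain totals it was at 0.42, against a median of 0.58 for all genes. For these 3 lists the upward counts on plain totals were 42 of 42, 34 of 36 and 8 of 10, against 6248 of 10099 for all genes.

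All 82 cytosolic ribosomal protein genes tested were lower, with a median log2 difference of -2.08 and the smallest fall in Rpl7l1, at -0.84, and the count was 82 of 82 on plain totals too. Rplp1, a protein of the ribosomal stalk, ranged from 1134 to 1999 CPM (median 1474) in the Malat1-high cells and from 4364 to 7125 (median 5952) in the other cells. The groups did not overlap, at -1.94 ± 0.11 (SE, adjusted p = 1.28e-10). Many ribosomal protein genes have processed pseudogenes, and how the counting split such reads is not given in the sources used here. Of 22 translation factors, 21 were lower and 1 higher (median -1.60), and on plain totals 16 were lower and 3 higher. Eef1a1, the elongation factor that carries aminoacyl-tRNA, was at -1.99 ± 0.11 (SE, adjusted p = 5.65e-11). Tpt1, a translationally controlled protein, ranged from 1082 to 2149 CPM (median 1446) in the Malat1-high cells and from 4364 to 9581 (median 6601) in the other cells, a log2 difference of -2.17 ± 0.11 (SE, adjusted p = 4.45e-11). The exception was Eif5, which activates the initiation complex, at 0.30 ± 0.07 (SE, adjusted p = 7.27e-04); in cells of at least 2000 UMIs it was at -0.04.

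Nuclear-coded subunits of the respiratory chain fell likewise, 74 of 76 with none called higher (median -1.67), and 73 of 76 fell on plain totals, where 2 were higher. Cox4i1, a subunit of cytochrome c oxidase, ranged from 195 to 343 CPM (median 242) in the Malat1-high cells and from 693 to 1064 (median 928) in the other cells. Its groups did not overlap, at -1.91 ± 0.10 (SE, adjusted p = 4.23e-11); Uqcrh of complex III had the largest fall, -2.11. The partners of these subunits that are coded in the mitochondrial genome had smaller differences. Of 13, 10 were lower and 0 higher, with a median of -0.28. On plain totals 8 were higher and 0 lower, against 6248 and 2029 of 10099 genes. The median was then 0.24, against 0.58 for all genes. mt-Co3, the most abundant, was at -0.23 ± 0.10 (SE, adjusted p = 0.043) with TMM and at 0.29 on plain totals, the scale on which the share of UMIs was given above. Cells with over 10% of UMIs in this class had been removed before the split.

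All 24 actin cytoskeleton genes tested were lower (median -1.35), and 20 were lower and 1 higher on plain totals. Tmsb4x, a small protein that holds actin monomers and one of the most abundant messengers in these cells, ranged from 3264 to 6052 CPM (median 3934) in the Malat1-high cells and from 12053 to 22432 (median 16340) in the other cells, a log2 difference of -2.03 ± 0.12 (SE, adjusted p = 2.05e-10). Actb reached -1.54 and Tmsb10 -2.46. Of 31 lysosomal genes, 24 were lower and 3 higher (median -0.63), and on plain totals 12 and 7. Cst3, an inhibitor of cathepsins, was at -1.45 ± 0.14 (SE, adjusted p = 4.75e-08) and Npc2, which carries cholesterol within the lysosome, at -1.50. Npc1, the membrane protein that takes cholesterol from Npc2, was higher, at 0.85 ± 0.07 (SE, adjusted p = 5.49e-09). The 3 spliced and exported lncRNAs tested went with the actin genes and against Neat1, and all were lower. Snhg6 was at -1.61 ± 0.09 (SE, adjusted p = 1.32e-10) and Epb41l4aos at -1.56, while Snhg12 at -0.68 was not called on plain totals.

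**Figure D3:**
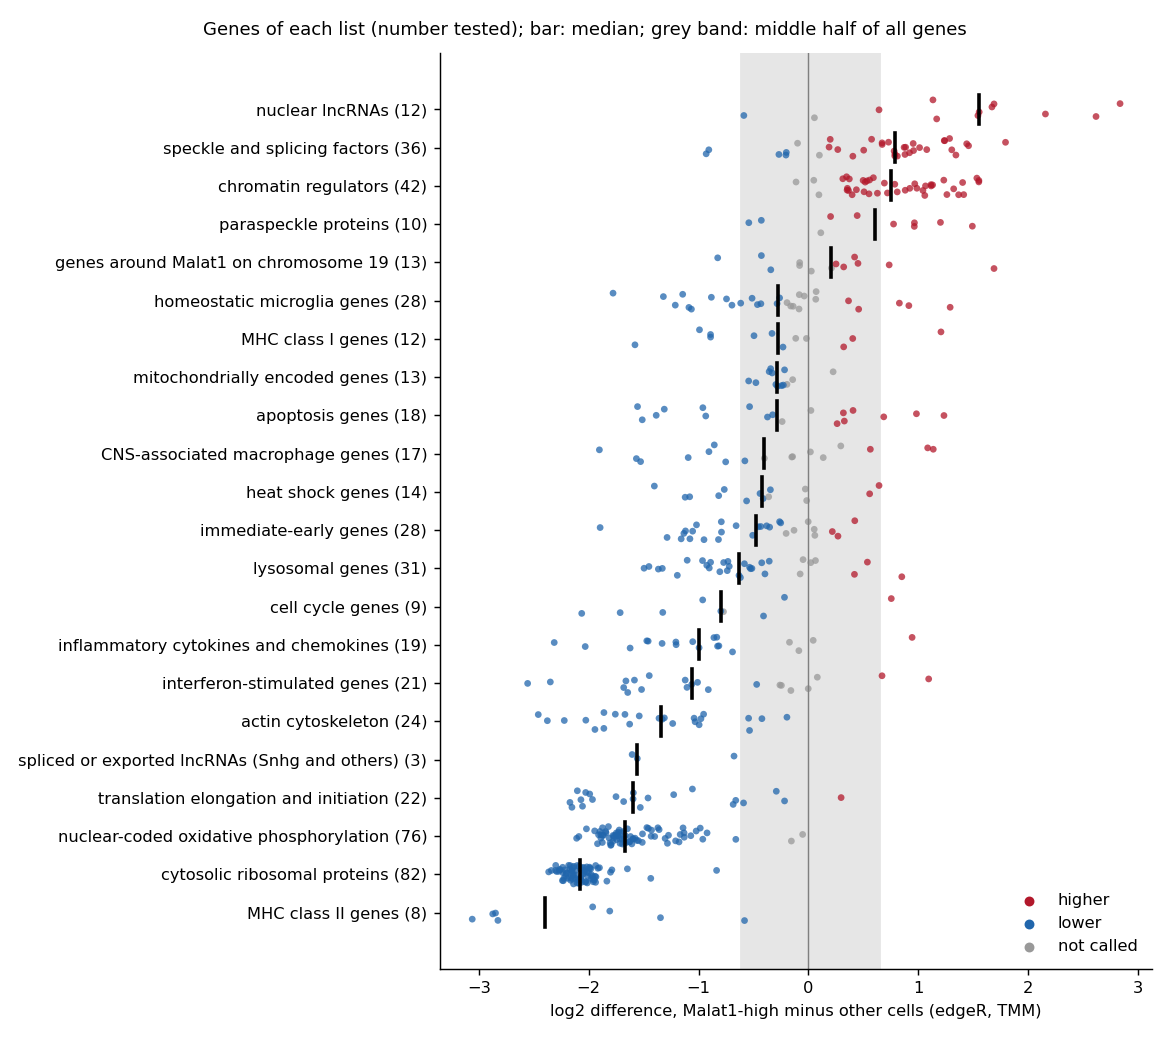
log2 difference between Malat1-high and other cells (x axis) for every tested gene of 22 lists (y axis, number tested in brackets); each dot is a gene, red when called higher, blue when called lower and grey when not called, and the black bar is the list's median. The grey band is the middle 50% of all 10099 genes, from -0.61 to 0.65. The median of the nuclear lncRNAs lies to its right, and the medians of the ribosomal protein, respiratory chain, translation and MHC class II lists to its left. Each of these lists except the ribosomal proteins has single members inside the band. Further lists have medians outside it, among them splicing factors (0.79) and chromatin regulators (0.75) to its right and the actin cytoskeleton (-1.35) to its left.

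Most of the 10 largest rises at 20 CPM or more were in genes antisense to another gene. The 10 largest among genes higher in all 8 pairs with at least 20 CPM in the Malat1-high cells, the level through which low genes passed, were Gm7480, Fam196b, B3galt2, Gm43221, Uchl4, Gm46411, 4933423P22Rik, Gm10848, Gm44752 and E430024P14Rik, with log2 differences from 4.00 down to 2.73. Annotation calls 7 of them antisense, and 9 of the 10 lie inside the span of another tested gene on the opposite strand.

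Gm7480 (chr14:22032086-22036103, minus strand) lies within Lrmda. It ranged from 15.4 to 155 CPM (median 129) in the Malat1-high cells and from 1.81 to 12.1 (median 7.61) in the other cells. The groups did not overlap, at 4.00 ± 0.14 (SE, adjusted p = 9.00e-12), while Lrmda itself was at -0.39. Fam196b (chr11:34314822-34422640, plus strand) lies within Dock2, an activator of the GTPase Rac in leukocytes. It ranged from 12.7 to 88.6 CPM (median 49.1) in the Malat1-high cells and from 0.767 to 7.98 (median 2.505) in the other cells, a log2 difference of 3.80 ± 0.23 (SE, adjusted p = 2.21e-10), against 0.86 for Dock2. B3galt2 (chr1:143640664-143654614, plus strand), a galactosyltransferase gene, lies within Cdc73, a subunit of the Paf1 complex. Its log2 difference was 3.78 ± 0.20 (SE, adjusted p = 5.78e-11), against 0.53 for Cdc73. Gm43221 lies within Fam102b (log2 difference 3.39 against 0.48), Uchl4 within Map2k1 (3.20 against -0.75) and 4933423P22Rik within Ptprj (2.98 against 0.71). The inner genes were picked as the largest rises, so a smaller value for the gene around them follows from the choice and is given as a description. Whether the authors' counting used strand is not given in the sources used here, so reads of a gene and of its antisense partner may not be fully told apart.

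Noncoding genes were frequent among the leading rises. Among the 50 leading genes upward, 33 were long noncoding, 17 protein-coding and 23 lay within a tested gene on the other strand; among the 50 leading genes downward, 49 were protein-coding and 0 lay within a gene on the other strand. By annotated type, 75% of 144 antisense genes and 68.7% of 179 lincRNA genes were higher, with median log2 differences of 1.18 and 1.08, against 40.7% and 0.04 for the 9763 protein-coding genes. Genes within the span of another tested gene had medians of 0.76 on the other strand (173 genes) and 1.28 on the same strand (47 genes), against 0.06 elsewhere; for protein-coding genes alone these were -0.15, 0.90 and 0.04. These classes hold few reads: the median level was 7.81 CPM for antisense and 30.4 for protein-coding genes.

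The length of a gene from its start to its end, introns included, ordered the differences. Among the 10 equal groups by span, in the one with the shortest span (204 to 4482 bases) the median log2 difference was -0.80, with 18.0% higher and 68.4% lower. It rose in every step to 0.68 in the group with the longest span (112072 bases and above), where 73.4% were higher and 9.31% lower. Spearman's rho across the 10097 genes with a position was 0.44, a description across genes, which are not independent replicates; with the mean level in CPM rho was -0.14. By exons of the longest transcript, the medians were 0.03 for 1, -0.05 for 2, -0.51 for 3 to 4, -0.42 for 5 to 8, 0.14 for 9 to 16 and 0.65 for 17 or more, so they did not rise steadily.

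**Figure D4:**
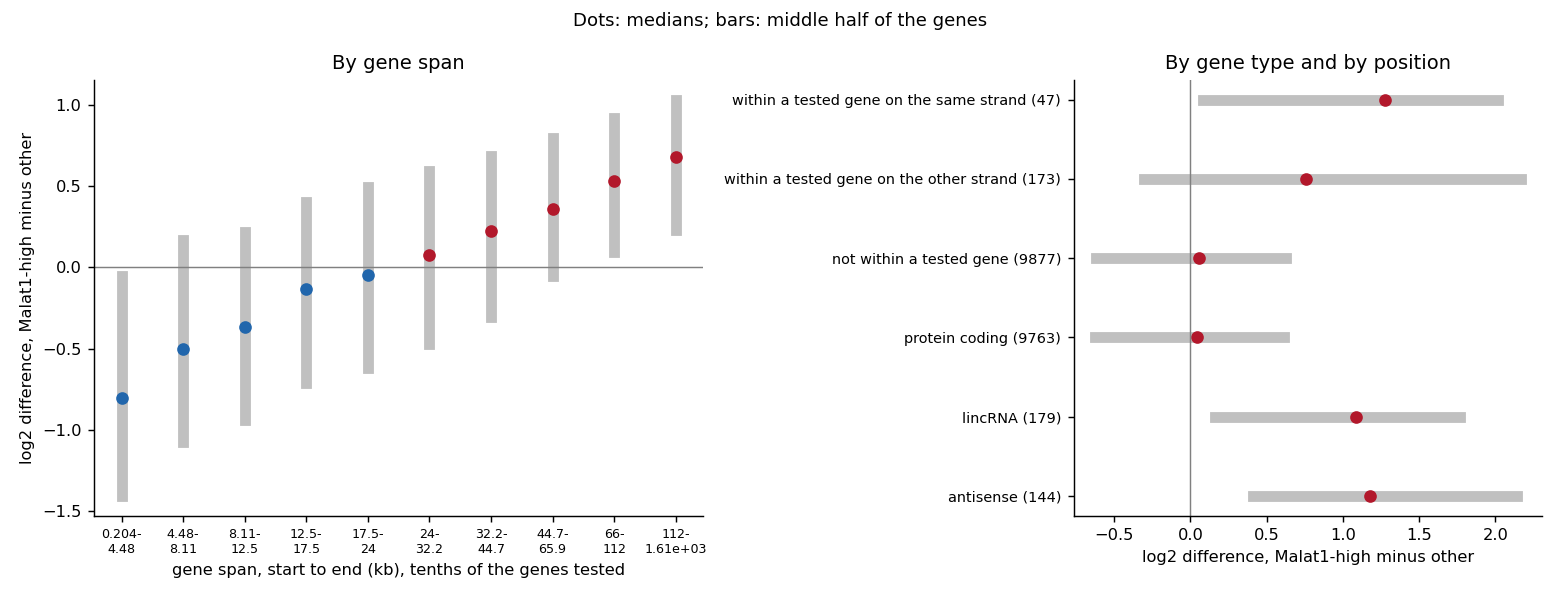
Left, log2 difference between Malat1-high and other cells (y axis) for 10 equal groups of the tested genes by span (x axis, kb); right, the same difference (x axis) by gene type and by position relative to other tested genes (number of genes in brackets). Dots are medians and grey bars the middle 50% of genes; the median rises from -0.80 to 0.68 with span and is 1.18 for antisense genes.

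Cd74, of antigen presentation, and the S100 genes S100a4, S100a10 and S100a11 were among the largest falls. Among genes lower in all 8 pairs with at least 20 CPM in the other cells, the level through which low genes passed, the 10 largest falls were Anxa1, Clec4b1, S100a4, Lgals3, Mcub, S100a10, S100a11, Gm34084, Cd74 and Olfm1, from -5.03 to -3.03. Anxa1, a phospholipid-binding protein that dampens inflammation, ranged from 0 to 5.03 CPM (median 0.701) in the Malat1-high cells and from 0.9003 to 156 (median 31.8) in the other cells. The groups overlapped across libraries, and the log2 difference was -5.03 ± 0.23 (SE, adjusted p = 2.39e-11). S100a4, a calcium-binding protein, ranged from 0 to 18.8 CPM (median 2.03) in the Malat1-high cells and from 0.180 to 305 (median 25.9) in the other cells, at -3.92 ± 0.17 (SE, adjusted p = 1.98e-11). Its 2 highest values in the other cells, 305 and 256.5, were the GFP+ libraries of the i.v. mice, and its 2 lowest, 0.18 and 0.46, the GFP+ libraries of the i.c.v. mice, where the Malat1-high cells were at 0 and the difference is within a few UMIs.

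All 8 genes of MHC class II tested were lower (median -2.40), and 7 of 8 on plain totals. Cd74, the invariant chain that guides class II molecules, ranged from 126 to 2276 CPM (median 541) in the Malat1-high cells and from 609.5 to 20838 (median 4303) in the other cells, a log2 difference of -3.06 ± 0.27 (SE, adjusted p = 2.28e-08), lower in 8 of 8 libraries although the groups overlapped. H2-Aa was at -2.87 ± 0.27 (SE, adjusted p = 5.74e-08). Ciita, the transcriptional activator of the class, fell least, by 0.58. Of 12 class I genes 7 were lower and 3 higher (median -0.28). On plain totals their median was 0.24, against 0.58 for all genes. B2m, the light chain, was at -1.58, and Nlrc5, the activator of class I genes, at 1.21 ± 0.20 (SE, adjusted p = 3.12e-05). Nlrc5 was named as the largest rise and B2m as the largest fall of class I, and Ciita as the smallest fall of class II. Their order therefore follows from the choice and is given as a description.

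Some markers of other cell types moved with these genes and some did not, and their part was not tested. The 9 neutrophil markers together held 0.0269% to 0.0551% of UMIs in the Malat1-high cells and 0.00773% to 0.953% in the other cells, where S100a8, a calcium-binding protein of neutrophil granules, had 13.1 ± 16.8 CPM (SD, n = 8) in the Malat1-high and 856 ± 1253 in the other cells. Of 4 neutrophil markers tested, 3 were lower and 1 higher, against 36.9% and 41.7% of all genes. Their log2 differences ran from -5.66 to 1.14. The neutrophil share was higher in the Malat1-high cells in 3 of 8 libraries, among them both i.c.v. GFP+ libraries. The 8 monocyte markers held at most 0.00675% and 0.0341%, and were higher in the Malat1-high cells in 2 of 8. The markers of choroid plexus or ependymal cells and of endothelial cells were higher there in 1 of 8 each, those of astrocytes in 6, and those of dendritic cells and of oligodendrocyte precursors in 5 each. The dendritic list shares Siglech with the microglia list, so its share of UMIs is not a measure of dendritic cells alone. By the count of 3 markers, 6 Malat1-high and 100 other cells passed for dendritic cells, at their unequal depths. Without the cells that carried at least 3 markers of another type, 4218 genes were higher and 3715 lower, and Cd74 stood at -3.01. Cells with monocyte or dendritic cell markers were kept in that comparison, so their part in the fall of Cd74 was not tested.

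Immune response genes were lower on balance. Of 21 interferon-stimulated genes 14 were lower and 2 higher (median -1.06), and of 19 inflammatory genes 15 were lower and 1 higher (median -0.996). Ifitm3, which blocks viral entry, was at -2.56 ± 0.16 (SE, adjusted p = 5.03e-10); Stat2, which carries the interferon signal to the nucleus, was higher at 1.09 ± 0.10 (SE, adjusted p = 1.95e-08). Il1b ranged from 52.7 to 602 CPM (median 203) in the Malat1-high cells and from 307 to 3804 (median 1151) in the other cells, a log2 difference of -2.31 ± 0.10 (SE, adjusted p = 1.98e-11), and Nfkb1 was higher at 0.94 ± 0.09 (SE, adjusted p = 5.20e-08). In cells of 1000 to 2000 UMIs only 1 inflammatory gene of 15 was lower and 1 higher, with a median of -0.01, and 4 interferon-stimulated genes of 9 were lower and 2 higher, with a median of -0.27. Calls were fewer for all genes at this depth, 1407 higher and 1255 lower of 5213.

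For immediate-early genes, which sorting and digestion can switch on, the direction against the median gene depended on depth. With TMM 20 of 28 were lower and 3 higher (median -0.48). On plain totals 11 were lower and 9 higher (median 0.03, against 0.58 for all genes). In cells of 1000 to 2000 UMIs 1 of 26 was lower and 14 were higher (median 0.48, against 0.16 for all genes at that depth). Fos went from -1.16 ± 0.08 (SE, adjusted p = 1.23e-09) in all cells to 0.35 in cells of that depth. Jun, the most abundant, was at 0.06 ± 0.10 (SE, adjusted p = 0.59), and Fosb at 0.42 ± 0.09 (SE, adjusted p = 2.65e-04), or -0.0040 in cells of at least 2000 UMIs. Of 14 heat shock genes 9 were lower and 2 higher (median -0.43). On plain totals their median was 0.09, against 0.58 for all genes. Hspa8, a constitutive chaperone, was at -1.12. Hsph1 was at 0.64, higher in 5 of 8 libraries, and at -0.13 in cells of at least 2000 UMIs. Of 18 apoptosis genes 9 were lower and 7 higher, near the shares of all genes, 36.9% and 41.7%. Their median was -0.28, and on plain totals 0.23, against 0.58 for all genes. Among them Cycs, cytochrome c, was at -1.56 and Bcl2, which restrains its release, at 1.23. Of 9 cell cycle genes tested 7 were lower and 1 higher, and on plain totals 3 and 2, led by Stmn1 at -2.06 and Cenpf at 0.75.

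Genes that define microglia moved in both directions. Of 28 homeostatic genes 15 were lower and 5 higher, with a median of -0.27. On plain totals the median was 0.24, against 0.58 for all genes. Tyrobp, the adaptor of Trem2, ranged from 853 to 1678 CPM (median 982) in the Malat1-high cells and from 2679 to 4184 (median 3619) in the other cells, at -1.78 ± 0.11 (SE, adjusted p = 2.01e-10), and C1qa and C1qb, chains of complement C1q, were at -1.09 and -1.21. Of the others, Mef2a, a transcription factor, ranged from 1180 to 1877 CPM (median 1664) in the Malat1-high cells and from 486 to 837 (median 672) in the other cells, at 1.29 ± 0.07 (SE, adjusted p = 1.32e-10), and its groups did not overlap. The surface proteins Tmem119, Siglech and Csf1r did not pass the test, at -0.19, -0.16 and -0.09.

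Of 17 CAM genes, 8 were lower and 3 higher (median -0.40). On plain totals their median was 0.11, against 0.58 for all genes. Apoe, a lipid carrier, ranged from 4522 to 57520 CPM (median 27097) in the Malat1-high cells and from 23269 to 124098 (median 72407) in the other cells, at -1.57 ± 0.19 (SE, adjusted p = 1.03e-06). Pf4, a chemokine, was at -1.90, and Stab1, a scavenger receptor, at 1.14 ± 0.09 (SE, adjusted p = 8.67e-09). Ms4a7 was at -0.86 ± 0.20 (SE, adjusted p = 0.001) and, in cells under 1000 UMIs, at 0.13. The values of Ms4a7 and Pf4 depended on GFP status: Ms4a7 was at -0.26 in the GFP+ and -1.61 in the GFP- libraries (interaction 1.42 ± 0.17, adjusted p = 3.59e-04), and Pf4 at -1.30 and -2.67 (interaction 1.45 ± 0.23, adjusted p = 0.0025).

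Around Malat1 on chromosome 19, calls were about as frequent as among all genes. Of 13 tested genes, Neat1 included, 6 were higher and 3 lower, against 41.7% and 36.9% of all genes, with a median of 0.21. On plain totals 11 were higher and 0 lower, against 6248 and 2029 of 10099 genes. The medians were then 0.74 and, for all genes, 0.58. Sipa1, a regulator of the GTPase Rap1, was at 0.42 ± 0.08 (SE, adjusted p = 1.00e-04), and Capn1, a calcium-dependent protease, at -0.83 ± 0.22 (SE, adjusted p = 0.0025). The direction of Sipa1 did not hold in cells under 1000 UMIs.

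The pattern was graded with the Malat1 share, not only split at 5%. Over the bands 0 to 1%, 1 to 2%, 2 to 5%, 5 to 10%, 10 to 15%, 15 to 20% and 20% or more, the median over 8 libraries of Neat1 was 106, 307, 582, 1814, 1929, 2366 and 2778 UMIs per 1000000, here on plain totals and so not on the scale of the CPM above. The ribosomal protein share went from a median of 17.3% (11.5 to 24.1) below 1% Malat1 to 13.2% (10.2 to 16.2) at 2 to 5%, 5.67% (4.69 to 9.57) at 5 to 10% and 3.56% (2.89 to 4.83) at 10 to 15%, with the range over libraries in brackets. Beyond 10% it stayed near that level, at 3.36% (1.82 to 5.29) in the highest band, which held 13 to 140 cells per library. Chromatin regulators went from 0.252% (0.184 to 0.453) of UMIs below 1% Malat1 to 1.08% (0.977 to 1.23) at 10 to 15%. Depth did not follow the same course: median UMIs outside Malat1 were 1116 (596 to 2561) below 1% Malat1, 6558 (589 to 11607) at 1 to 2% and 900.2 (740.5 to 3473) at 5 to 10%. The i.v. female GFP+ library differed from the rest at 5 to 10% Malat1, where its cells were deep (3473 UMIs) and its Neat1 level on plain totals was the lowest, at 572.

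**Figure D5:**
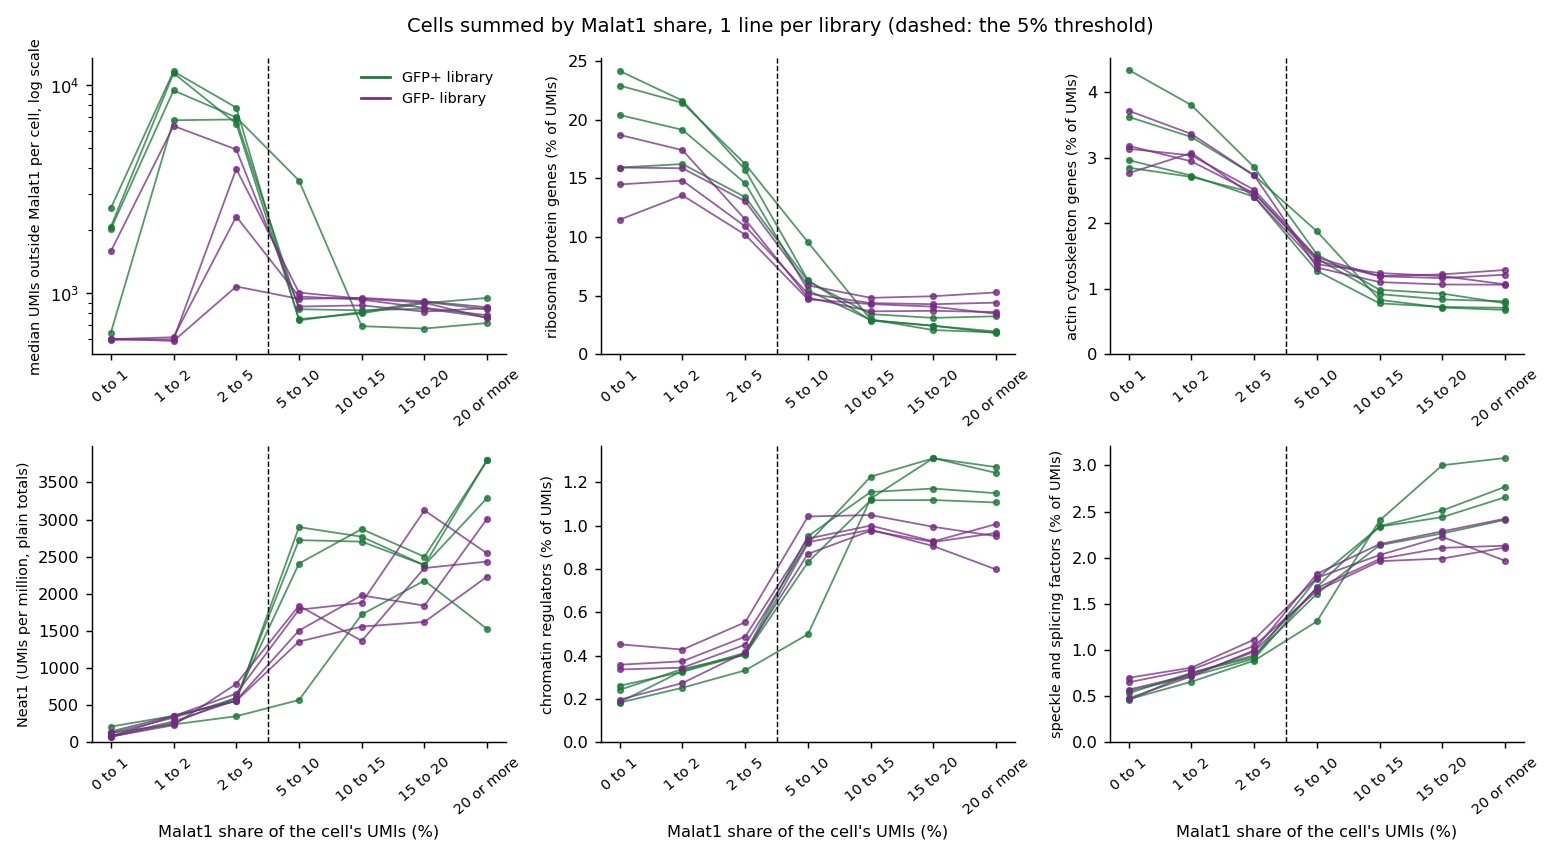
Median depth (log axis), ribosomal protein and actin cytoskeleton shares, Neat1 level on plain totals, and chromatin regulator and splicing factor shares (y axes) over 7 bands of the Malat1 share per cell (x axis, %), 1 line per library, GFP+ in green and GFP- in purple. The shares change over the 5% threshold (dashed) in the same direction in every library, while depth peaks at 1 to 5% in the GFP+ libraries.

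Since depth differed between the groups, the comparison was repeated within bands of depth. Among cells under 1000 UMIs outside Malat1, 2085 genes were higher and 2078 lower of 7708 tested, among cells of 1000 to 2000 UMIs 1407 and 1255 of 5213, and among cells of at least 2000 UMIs 2737 and 2575 of 9448. The first and the last were added after the data were seen. Ribosomal protein genes were lower in all 3, 82, 81 and 82 of 82, with medians of -1.35, -2.09 and -1.71. Chromatin regulators were higher in 24, 30 and 27 of 42, with medians of 0.58, 0.62 and 0.41, and 1 member was lower in the shallowest and in the deepest band. MHC class II genes had medians of -1.07, -1.33 and -2.22. Homeostatic microglia genes changed sign with depth, at -0.80, -0.42 and 0.12. The middle band rested on 60 to 249 other cells per library. When the Malat1 share was taken on a random 50% of each cell's UMIs and the genes were counted in the remaining UMIs, 3646 genes were higher and 3233 lower of 8864.

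Whether the difference was the same in GFP+ MLCs and GFP- microglia was tested as an interaction. Of the 10099 genes 140 passed (1.39%), 116 with a difference higher in GFP+ and 24 with a difference higher in GFP- libraries, and 1303 had an unadjusted p under 0.05. The direction of that split turned under some settings, to 91 and 322 with cells thinned to 500 UMIs, 52 and 188 at 1000 to 2000 UMIs and 656 and 905 with Malat1 at 10%. Without library as a block only 1 gene passed, and leaving out the GFP- library of the i.v. male, i.c.v. female or i.c.v. male mouse left 80, 76 or 78. Read alone, the GFP+ libraries gave 3703 higher and 3659 lower genes, and the GFP- libraries 3698 and 3657; the ribosomal protein genes were lower in 82 of 82 in each. The other cells of the 2 sorts differed in median depth in all 4 mice, as given above; within depth bands the interaction count was 4 under 1000 UMIs, 240 at 1000 to 2000 and 804 at 2000 or more.

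Ptgds, a prostaglandin D2 synthase, had the largest interaction. In the i.v. female, i.v. male, i.c.v. female and i.c.v. male mice its Malat1-high cells had 216, 15.3, 253 and 12.4 CPM in the GFP+ libraries, and its other cells 85.8, 17.2, 28.3 and 16.1. In the GFP- libraries the Malat1-high cells had 8.72, 7.01, 21.5 and 6.15 and the other cells 49.9, 45.2, 64.7 and 55.9. The interaction was 3.76 ± 0.56 on the log2 scale (SE, adjusted p = 0.0018). All 4 GFP- libraries were lower in the Malat1-high cells, whereas among the GFP+ libraries only those of the female mice were higher. Astrocyte markers were also higher in the Malat1-high cells of these 2 libraries, at 0.0208% against 0.00775% of UMIs in the i.v. and 0.0117% against 0.00513% in the i.c.v. mouse, and lower in those of the 2 male GFP+ libraries. So were the markers of oligodendrocyte precursors, at 0.00305% against 0.000315% and 0.00159% against 0.000267%. Oligodendrocyte markers were at 0.0340% against 0.0109% and 0.00774% against 0.00682% in the female libraries, and lower in the 2 male ones. In the GFP- libraries, where Ptgds was lower, astrocyte markers were higher in the Malat1-high cells in 4 of 4, from 0.0189% to 0.0262% against 0.0117% to 0.0170%, those of oligodendrocyte precursors in 3 of 4 and those of oligodendrocytes in 2 of 4. Their part in the interaction was not tested.

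Sorbs3, an adaptor at cell adhesions, differed between the sorts in every mouse. In the i.v. female, i.v. male, i.c.v. female and i.c.v. male mice its Malat1-high cells had 28.2, 31.1, 26.8 and 24.0 CPM in the GFP+ libraries, and its other cells 18.3, 13.8, 15.1 and 19.6. In the GFP- libraries the Malat1-high cells had 1.09, 2.13, 7.38 and 2.77 and the other cells 6.65, 9.46, 10.98 and 7.61. The interaction was 2.08 ± 0.35 on the log2 scale (SE, adjusted p = 0.0037). All 4 GFP+ libraries were higher in the Malat1-high cells and all 4 GFP- libraries lower.

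In the same direction were Sept4, a septin, at 2.95 ± 0.51, Gbp8, a guanylate-binding protein, at 1.87 ± 0.36 and Dram1, a p53-induced regulator of autophagy, at 1.75 ± 0.42 (adjusted p = 0.005, 0.011 and 0.047). In the opposite direction, St3gal5, the enzyme that makes ganglioside GM3, had 7.38, 7.09, 10.5 and 3.20 CPM in the Malat1-high and 19.2, 22.2, 19.8 and 8.13 in the other cells of the GFP+ libraries (same order of mice). In the GFP- libraries these were 85.0, 78.7, 59.7 and 69.2 and 69.3, 82.5, 44.2 and 73.2. Its interaction was -1.43 ± 0.22 (adjusted p = 0.0018), with all 4 GFP+ libraries lower in the Malat1-high cells and the GFP- libraries split. Capg, an actin-capping protein, was at -1.70 ± 0.35, Lsp1, an actin-binding protein of leukocytes, at -1.44 ± 0.33, Gm17056 at -1.49 ± 0.33 and Socs3, an inhibitor of cytokine signalling, at -1.27 ± 0.23 (adjusted p = 0.017, 0.033, 0.028 and 0.0086). The interaction of Ptgds was -0.37 in cells under 1000 UMIs, and those of Gm17056 and Socs3 were 1.73 and 0.50 at 1000 to 2000 UMIs. Over the alternatives, the call of Dram1 was kept in 8 and lost in 14, and that of Lsp1 kept in 12 and lost in 13.

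The study also sequenced 4 libraries, microglia of the same gate among them, from 1 untreated C57BL/6J animal, 8 to 12 weeks old by the labels. There the same threshold marked 23.8% of 575 kept neurons, 86.7% of 1146 astrocytes, 21.6% of 1274 microglia and 2.64% of 341 white blood cells. There was 1 library of each from a single animal, so these are values of those libraries and no comparison was made.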

How the data were processed

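Per the labels and methods, the authors sorted cells from whole brains, prepared 10x 3′ libraries, sequenced them on a NextSeq instrument and aligned them to mm10 with Cell Ranger 3.1.0 (version from the file headers). The authors deposited raw UMI counts per gene and barcode; the treated tables hold barcodes of at least 500 UMIs. Whether counting used strand is not given in the sources used here.

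Barcodes under 200 detected genes or over 10% mitochondrial UMIs were removed, and no doublet caller was run. Raw counts were summed per library for cells with Malat1 at 5% or more and for the other cells, with Malat1 removed. The edgeR 4.0.16 quasi-likelihood test (R 4.3.3; TMM, filterByExpr, Benjamini-Hochberg adjustment) used library as a block, because both sums of a pair come from the same sorted sample. The interaction with GFP status was tested in the same fit. Gene levels are CPM without Malat1, on totals scaled by TMM, so they differ from plain-total levels in opposite directions in the Malat1-high and other cells; shares of UMIs and levels by Malat1 band are on plain totals. Shares were compared by two-sided exact sign-flip tests. The 8 pairs come from 4 mice, so p-values measure the spread between these libraries. Depths are those given with the cell groups, and counting error is only part of the error. Gene positions came from GENCODE vM21 (GRCm38) and matched 10097 of 10099 genes.

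The named genes were Malat1 and Neat1; the 10 largest called changes in each direction, alike in all 8 pairs, with at least 20 CPM; of each list the 2 most abundant members and the largest called change in each direction; and the 5 largest interactions in each direction. Some genes that this rule names are not reported here. Genes named beyond these were chosen after their values were seen. The cell groups and lists were chosen with earlier results of these data known. On simulated data with known changes, the paired test over 10085 genes recovered 100% of 100 genes changed by a log2 of 1, and 3.38% of its calls were false; the interaction test over 10043 genes recovered 84%, and 5.18% of its calls were false. The simulation changed few genes, equally in both directions and only at higher counts, whereas 78.6% of genes were called in the data. Its rates therefore do not show how the tests behave when most genes shift. Alternatives were DESeq2 1.42.0, other scalings, thresholds, filters and depths, and leaving out each library. Python 3.11.15 with numpy 2.4.6, pandas 2.3.3 and scipy 1.17.1 was used.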

Additional observations from a re-analysis of the deposited data

Results flagged for a closer look

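The i.v. female GFP- library stood apart among the 4 GFP- libraries in the share of Malat1-high cells, 81.4%, and in the median depth of its other cells, 3589 UMIs outside Malat1. Among the 101 named genes, 10 had 1 library whose log2 ratio between Malat1-high and other cells lay far from the rest, where chance marks about 1 in 20 groups. In the i.v. female GFP+ library these were C1qa at -0.48, C1qb at -0.68, Dusp2 at -3.62 and Gadd45b at -2.69. In the i.v. female GFP- library they were Fosb at 0.92, H2-Aa at -5.23 and Sfpq at 1.43. The others were Capn1 at -2.93 in the i.v. male GFP- library, Epb41l4aos at -2.27 in the i.v. male GFP+ library and Hnrnpk at -0.80 in the i.c.v. male GFP- library.

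The difference depended on GFP status for 140 genes by the interaction test. The largest values, GFP+ minus GFP- on the log2 scale, were 3.76 for Ptgds, 2.95 for Sept4, 2.08 for Sorbs3, 1.87 for Gbp8 and 1.75 for Dram1, and in the other direction -1.70 for Capg, -1.49 for Gm17056, -1.44 for Lsp1, -1.43 for St3gal5 and -1.27 for Socs3.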

How the results depend on the processing

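Of 2725 values of the 101 named genes under the alternatives, 2594 kept their direction and side of the threshold, 72 lost and 32 gained a call, and 27 turned. The cause was not tested for any of them. The interactions with GFP status, counted apart, lost their call more often, in 14 alternatives for Dram1 (kept in 8), 13 for Lsp1 (kept in 12), 10 for Gm17056 (kept in 14), 9 for Capg (kept in 15), 5 for Ptgds, 4 each for Sept4 and St3gal5, 3 each for Gbp8 and Sorbs3 and 2 for Socs3. Counts of higher genes were 2085 in cells under 1000 UMIs, 1407 at 1000 to 2000 and 2737 at 2000 or more, and of lower genes 2078 and 1255 in the shallower bands and 2029 on plain totals. The interaction count was 383 without a filter on low counts, 247 and 1561 with Malat1 at 3% and 10%, 34 at the library median, 246 with the strict cell filter, 413 with thinned cells, 286 on plain totals, and 4, 240 and 804 over rising depth. The mitochondrial share of UMIs differed by -0.467 with the strict filter, -0.0835 in cells under 1000 UMIs, 0.487 at 1000 to 2000 (exact sign-flip test, p = 0.13) and 0.337 at 2000 or more (exact sign-flip test, p = 0.10).

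Without the replicate block 3698 genes were higher, 3291 lower and 1 showed an interaction; with the 4 mice as the block 4489 were higher and 4377 lower, and St3gal5 stood at 0.29. Leaving out each library gave 4083 to 4176 higher and 3618 to 3723 lower genes, 76 to 172 interactions, differences of 0.355 to 0.561 in the mitochondrial share of UMIs and -10.7 to -9.66 in the ribosomal protein share of UMIs, and 45.0 to 49.1 more genes per 500 UMIs.

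Genes that turned at 1000 to 2000 UMIs were Ccl3 0.17, Cdkn1a 0.14, Ddx5 0.70, Fos 0.35, Gm42418 -0.32, Hmgb2 0.44 and Socs3 0.35, with interactions of 1.73 for Gm17056 and 0.50 for Socs3. Under 1000 UMIs they were Ddx5 0.43, Gm42418 -0.57, Hmgb2 0.69, Ms4a7 0.13 and Sipa1 -0.0083, with an interaction of -0.37 for Ptgds. At 2000 or more they were Eif5 -0.041, Fosb -0.0040, Gm17056 -0.026 and Hsph1 -0.13. On plain totals, where the median of all genes was 0.58, they were Ddx5 0.42, Hmgb2 0.30, mt-Atp6 0.22 and mt-Co3 0.29. Hmgb2 was at 0.23 in thinned cells and mt-Co3 at 0.015 in all barcodes. In GFP- libraries alone Gbp8 was at -1.12, Sept4 at -1.07 and Sorbs3 at -1.40, and in GFP+ libraries alone Ptgds at 1.28. Genes per 500 UMIs were not computed for all barcodes or for the split on part of the UMIs, and the interaction was not run with mice as the block.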
